A study of Mus musculus with 2 samples.

Results

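Tetraspanins are small proteins that cross the cell membrane several times, with a short and a long extracellular loop, and that gather integrins, immunoglobulin-superfamily proteins, proteases and receptors into membrane microdomains. In the urothelium, the epithelium that lines the ureter and the bladder, the best known members are the uroplakins Upk1a and Upk1b, which pair with Upk2 and Upk3a to form the rigid plaques of superficial cells. The genes described here are the other members of the family on the array: 30 genes of the 29923 measured, chosen by their names as those called Tspan with a number, together with Cd9, Cd37, Cd53, Cd63, Cd81, Cd82, Cd151, Prph2, Rom1 and Tm4sf1. Tm4sf1 carries a similar name but belongs to the L6 family, which is not related to the tetraspanins by sequence, and its values are counted with the rest and also given separately.

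Each of 2 two-colour arrays compared RNA from ureters of E18.5 NMRI mouse embryos (the number gives the embryonic day). The Pparg-cKO pools carried 1 Pax2-cre transgene over a wild-type allele and floxed alleles of Pparg on both chromosomes, while the control pools are labelled as having a floxed allele and an unstated second one, and came from littermates without cre. Pparg encodes a nuclear receptor that regulates transcription together with RXR partners. Cre driven by Pax2 regulatory sequences is active in the ureteric epithelium and the collecting duct system of the kidney. Replicate 1 held a female and replicate 2 a male pair of pools, and the dyes were exchanged, so that sex, dye orientation and array changed together and cannot be told apart. RNA was taken from whole ureters, and therefore fewer cells of a type and less RNA per cell cannot be told apart for any gene. Below, the female and the male array stand for the replicates, and a level is the processed signal of the scanner in linear units, which can be compared between pools for 1 probe but not between genes.

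All directions are those of the deposited ratios, which name Pparg-cKO against control but run opposite to the dye labels on both arrays. This direction is likely, because the study's text and tissue sections run the same way, but it is not settled. Should the labels of the dyes hold instead, each higher turns into lower, and sizes, total counts and p-values are the same. Among the labels that could be examined, Xist and Ddx3y followed the sex of the pools. The transcript of Pparg itself read 12360 against 6113 on the female and 12930 against 6688 on the male array, Pparg-cKO first, a mean log2 ratio of 0.97 ± 0.01 (SD, n = 2 arrays; adjusted p = 0.0389 in limma). On tissue sections the study saw a Pparg transcript without the floxed exons in the mutant, which was increased at E18.5. The place of this probe relative to the floxed exons was not analysed here, and its level does not check the genotype. Krt20, a keratin of superficial cells, had log2 ratios of -3.15 and -3.03.

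The 30 genes were measured by 44 probes, each printed on 4 spots. In the pools, 28 of the 30 were well above background in the Pparg-cKO pools, 29 in the female control pool and 28 in the male control pool. Tspan10, an ADAM10 partner known from pigmented cells of the eye, was not well above background in any pool, with signals from 1.03 to 1.96. Prph2, a protein of photoreceptor disc rims, was well above background only in the female control pool, with a signal of 2.95. Neither gene was tested, and no ratio is given for them. The remaining 28 genes entered the test across 22499 genes, and 24 of them reached a signal of 100 in the brighter pool on both arrays, the level that the study's fold rule asks for. The brightest signals were those of Cd81, from 18870 to 22410, and of Cd9, from 13910 to 15930.

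**Figure D1:**
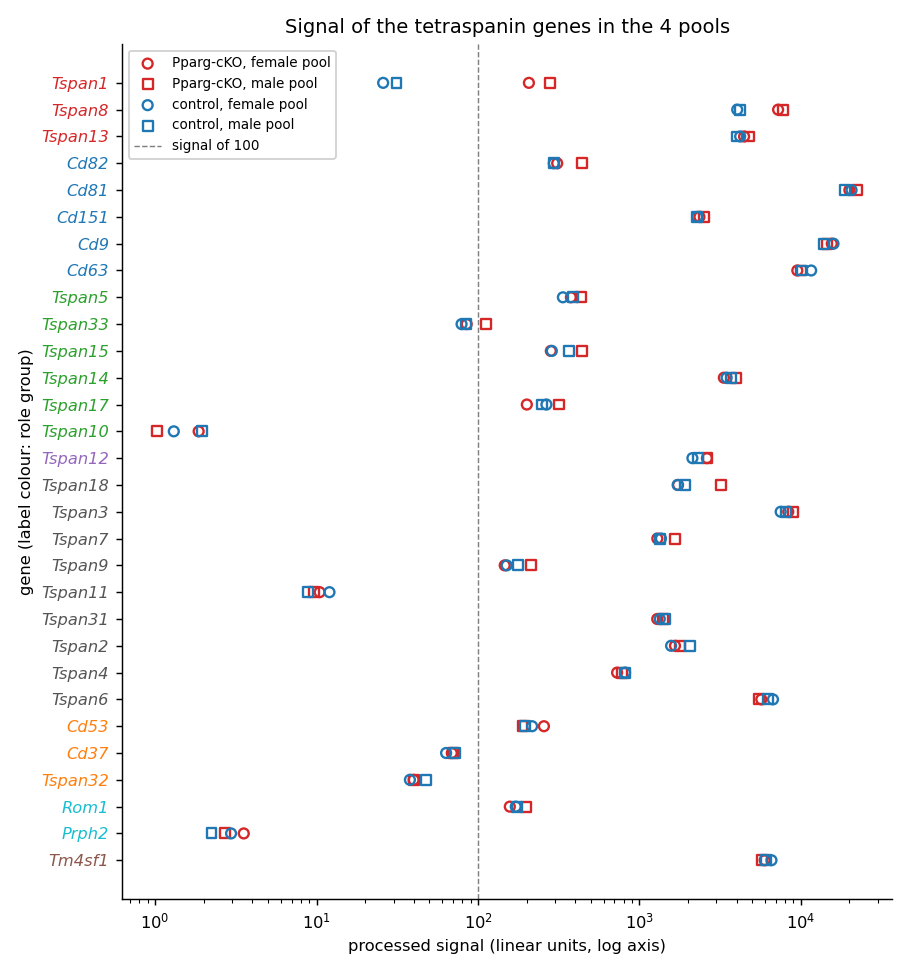
Processed signal (linear units on a log axis) of the 30 tetraspanin genes in the 4 pools, with Pparg-cKO in red and control in blue, circles for female and squares for male pools, and gene names coloured by role group. The red and blue symbols lie far apart for Tspan1, where the Pparg-cKO pools read 207 and 278 and the control pools 25.9 and 31.3. They lie apart less widely for Tspan8, and for most other genes the 4 symbols nearly coincide.

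Tspan1 and Tspan8 were the genes of the family that rose in Pparg-cKO ureters. By the fold rule, at least 1.5-fold in the same direction on both arrays with a signal of at least 100 in the brighter pool on each, 2 of the 24 bright members passed, both higher, and 0 were lower. Over all genes the rule called 1.84% of 14015, with 0.792% higher and 1.05% lower. In limma, a moderated test of the mean of both log2 ratios, 1 of the 28 members tested had an adjusted p under 0.05, against 0.742% of all genes tested. At an unadjusted p under 0.05 limma gave 3 of the 28 members, Tspan1, Tspan8 and Tspan12, and 1899 of all 22499 genes. With so few members called, these shares describe the genes and are not a test of the family.

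Tspan1 encodes a tetraspanin found at the surface and in vesicles of secretory and mucosal epithelia and raised in several carcinomas. Its only probe lies on the minus strand of mouse build mm9 at chr4:115835249-115835308. The first 30 of its 60 bases, printed to show which stretch of the gene was measured, are given in lower case.
Tspan1 probe: aaggcacttacagcctgggcattttctaac
The signal of Tspan1 was 207 in the female and 278 in the male Pparg-cKO pool, against 25.9 in the female and 31.3 in the male control pool. Both Pparg-cKO pools were far above both control pools, and all 4 pools were well above background. On the log2 scale the ratio was 2.28 (female array) and 2.55 (male array) and averaged 2.41 ± 0.19 (SD, n = 2), which is 5.33-fold higher. Its 95% interval in limma was 2.11 to 2.72, with an adjusted p of 0.00649. The offset of 50 added before the ratio was taken shrinks it at such low control signals, and without the offset the mean was 2.78. Scanner-processed signals, which also differ in background correction and dye normalisation, gave 3.08, or 8.46-fold (limma adjusted p = 0.0118). With the deposited value table in place of the scanner files the mean was larger, at 3.07, but limma called none of the genes and the adjusted p of Tspan1 became 0.533 (2101 genes had an unadjusted p under 0.05 there).

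Tspan8 encodes a surface glycoprotein of gut and other glandular epithelia that was first described as a tumour antigen and travels on exosomes. It also had a single probe, on the plus strand of mm9 at chr10:115286563-115286622, whose first 30 bases are printed for the same reason.
Tspan8 probe: gcagtctacagatatcttcacaggtattca
Tspan8 read 7229 in the female and 7715 in the male Pparg-cKO pool, and 4034 in the female and 4222 in the male control pool. The genotypes did not overlap, and the pools of each genotype were close to each other. The log2 ratio was 0.72 (female array) and 0.90 (male array) and averaged 0.81 ± 0.13 (SD, n = 2), or 1.76-fold higher. The fold rule was passed, while the adjusted p in limma was 0.0714, with a 95% interval of 0.53 to 1.10. Normexp background correction without an offset gave an adjusted p of 0.0177 in limma at the same mean of 0.81, and over 7 alternatives that keep the direction the adjusted p ran from 0.0177 to 0.533. Tspan13, listed with Tspan1 and Tspan8 as a gene of epithelial and secretory tissues, passed neither rule, with log2 ratios of -0.05 and 0.40 and a 95% interval of the mean from -0.20 to 0.54.

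Marker genes of the urothelium and of the collecting duct were read beside these values. Among 16 urothelial marker genes, 1 was higher and 3 were lower by the fold rule (0.792% and 1.05% over all genes), and their median log2 ratio was -0.39 (female array) and 0.20 (male array). The genes called lower were Krt20, Upk1a and Upk1b, and the one called higher was Krt19. On both arrays 5 of the 16 were higher (Cdh1, Elf3, Epcam, Foxa1 and Krt19) and 7 were lower, while 4 had opposite signs. The median and the sum thus mix genes that went in different directions. The summed signal of the 16 genes was 96040 against 136300 in the female and 120600 against 118800 in the male pools, Pparg-cKO first. Of 5 genes of the kidney collecting duct, 1 passed the fold rule (higher), and the summed signal was 706 against 219 in the female and 808 against 244 in the male pools. The gene that passed was Fxyd4, a regulator of the sodium pump, which read 536 against 77.4 in the female and 596 against 109 in the male pools. The mean log2 ratios of the others were 0.54 (Scnn1b), 0.20 (Avpr2), 0.16 (Hsd11b2) and -0.15 (Aqp2, the water channel of principal cells), and these 5 genes are named after their values were seen. The part of these cell types in the rise of Tspan1 and Tspan8 was not tested.

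The promoters of both raised genes are shown because Pparg with RXR binds DNA at direct repeats of a hexamer spaced by 1 base. They are taken from RefSeq on build GRCm38.p6 and comprise the 250 bases before the transcription start. The window of Tspan1 lies on the minus strand at chr4:116167599-116167848 and that of Tspan8 on the plus strand at chr10:115817034-115817283.
Tspan1 promoter: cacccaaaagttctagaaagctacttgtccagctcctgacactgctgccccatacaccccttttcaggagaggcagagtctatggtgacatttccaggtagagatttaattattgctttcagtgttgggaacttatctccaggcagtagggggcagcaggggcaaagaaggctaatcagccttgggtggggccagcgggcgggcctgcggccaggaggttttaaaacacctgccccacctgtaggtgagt
Tspan8 promoter: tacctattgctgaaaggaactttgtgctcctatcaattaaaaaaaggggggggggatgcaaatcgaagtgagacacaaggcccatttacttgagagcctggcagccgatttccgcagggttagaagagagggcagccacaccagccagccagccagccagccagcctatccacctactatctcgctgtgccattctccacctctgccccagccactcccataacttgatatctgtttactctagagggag
A repeat of the form AGGTCANAGGTCA, searched on both strands in windows of 300 bases that run 50 bases past the start, was found in 13 of 32851 promoter windows and in 0 of the 39 windows that belong to 29 of the 30 members. The single hexamer AGGTCA, which also lies within every such repeat, was found on either strand in 16.3% of all windows and in 4 of the 39, from Cd151, Tspan7 and Tspan8. In Tspan8 it lay past the start, at transcribed base 30, and is marked in capitals, as its reverse complement, in these 30 bases at chr10:115817301-115817330.
Tspan8 hexamer: tcataaatatccTGACCTaatgccttagca
Tspan1 held none in its window. A match of letters is not a binding site, and the lack of one says only that these letters are not in the window.

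The other members stayed within narrower limits. Of the 26 genes tested that passed neither rule, the mean log2 ratio ran from -0.21 for Tspan6 to 0.38 for Tspan18, and the adjusted p in limma from 0.583 to 0.997. Of these 26 genes, 22 were bright on both arrays, and for 19 of the 22 the 95% interval of the mean lay inside 1.5-fold in either direction. The exceptions were Tspan18, Cd82 and Tspan17, whose ratios differed most between the arrays. A p that missed the threshold does not show that a gene was equal in both genotypes, and for the 4 dimmer genes (Tspan33, Cd37, Tspan32 and Tspan11) the offset of 50 added to the signals shrinks the ratio, so that a narrow interval says little.

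**Figure D2:**
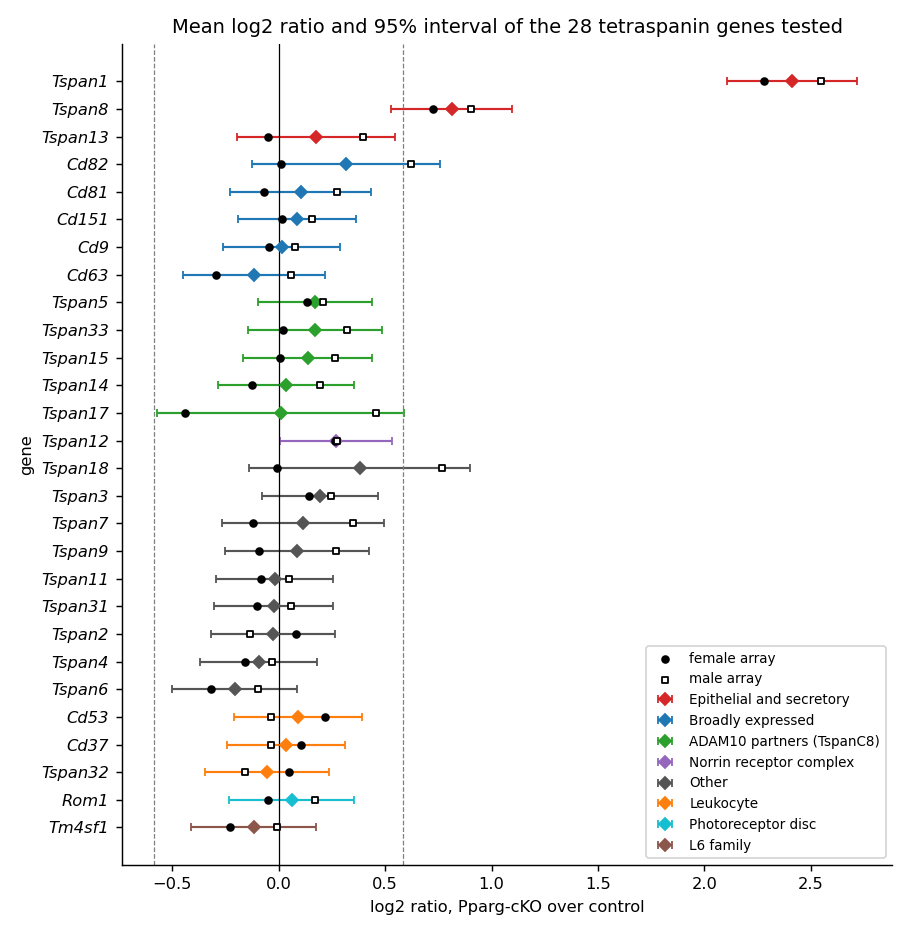
Log2 ratio of Pparg-cKO over control (deposited direction) of the 28 genes tested, grouped by role: diamonds with bars give the mean and its 95% interval in limma, black circles the female and open squares the male array, and dashed lines mark 1.5-fold. Tspan1 at 2.41 and Tspan8 at 0.81 stand apart, and the intervals of Tspan18, Cd82 and Tspan17 are the ones of the remaining genes that cross a dashed line.

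The broadly expressed members are the scaffolds of most tetraspanin microdomains. Cd9 and Cd81, which bind immunoglobulin-superfamily proteins, had mean log2 ratios of 0.01 ± 0.09 and 0.10 ± 0.24 (SD, n = 2). Cd63, a protein of late endosomes and exosomes, had -0.12 ± 0.25, and Cd151, the partner of laminin-binding integrins, had 0.09 ± 0.10. None of these 4 genes reached 1.5-fold on either array. Cd82, known as a suppressor of metastasis, behaved differently on the arrays: it read 310 against 295 in the female pools and 439 against 295 in the male pools, Pparg-cKO first. The male Pparg-cKO pool alone was high, and the log2 ratio was 0.01 (female array) and 0.62 (male array) and averaged 0.32 ± 0.43 (SD, n = 2; adjusted p = 0.726 in limma). Further probes of Cd82 gave 0.14 and 0.34, and -0.01 and 0.23, on the female and the male array.

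The TspanC8 subgroup escorts the protease ADAM10 out of the endoplasmic reticulum and directs it to its substrates, among them Notch receptors and cadherins. Apart from Tspan10, the 5 members tested had mean log2 ratios from 0.01 to 0.17, and all 5 were higher on the male than on the female array. Tspan5 had 0.13 and 0.21 on the female and the male array, Tspan33 had 0.02 and 0.32, Tspan15 had 0.01 and 0.27, and Tspan14 had -0.12 and 0.19. Their partner Adam10 gave 0.07 and 0.11. Tspan17 was the member that moved by at least 1.2-fold in opposite directions on the arrays: it read 201 against 265 in the female pools and 316 against 249 in the male pools, Pparg-cKO first. The log2 ratio was -0.44 (female array) and 0.46 (male array). A second, dimmer probe of Tspan17 gave -0.19 and 0.16, in the same directions.

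Tspan12 assists the receptor complex through which Norrin, the product of Ndp, signals by way of Fzd4 and Lrp5. Its signals were 2620 against 2129 in the female and 2640 against 2303 in the male pools, Pparg-cKO first. The Pparg-cKO pools were higher on both arrays by nearly the same amount, with log2 ratios of 0.27 and 0.27. The mean of 0.27 ± 0.004 (SD, n = 2), or 1.21-fold, gave limma p-values of 0.0472 before and 0.583 after adjustment, and did not reach 1.5-fold. Its signalling partners gave values of -0.45 and -0.54 (Ndp), -0.13 and -0.28 (Fzd4) and -0.14 and 0.36 (Lrp5) on the female and the male array, and none of them passed either rule.

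Members of blood cells passed neither rule. Cd53 and Cd37, tetraspanins of leukocytes, and Tspan32, of haematopoietic cells, had mean log2 ratios of 0.09, 0.03 and -0.06, with adjusted p of 0.933, 0.981 and 0.966 in limma. At their brightest probes all 3 were slightly higher on the female and slightly lower on the male array. Further probes differed in part: the second of Cd37 gave 0.12 and 0.15, and 1 of Tspan32 gave -0.16 and -0.03. Another probe of Tspan32 gave 0.08 and -0.09, with the same signs as the brightest. The median of 11 leukocyte marker genes followed the same order, at 0.13 (female array) and -0.02 (male array), with 0 of 11 past the fold rule. Their summed signal was 12970 against 11350 in the female and 11750 against 12140 in the male pools, Pparg-cKO first, most of it from Itgam (8505 against 7120, and 7658 against 8099). Its part in these values was not tested.

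Among the further members, Tspan18, which is known in endothelial cells as a regulator of the calcium channel Orai1, was the one that passed 1.5-fold on a single array. Its brightest probe read 1735 against 1725 in the female pools and 3218 against 1905 in the male pools, Pparg-cKO first. The male Pparg-cKO pool stood above the other 3, and the log2 ratio was -0.01 (female array) and 0.77 (male array) (mean 0.38 ± 0.55, SD, n = 2; adjusted p = 0.724 in limma). Counted on 1 array alone, 2 members passed 1.5-fold on the female array (3.16% of all bright genes) and 4 on the male array (8.81%), where Tspan18 and Cd82 joined Tspan1 and Tspan8. Of 7 endothelial marker genes 0 passed the fold rule and 1 passed 1.5-fold on the male array alone (Vwf, with 0.09 and 1.01, named after its value was seen), and their median was 0.05 (female array) and 0.23 (male array).

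Tspan18 was also the gene whose probes disagreed. The first 30 bases of its 3 brightest probes, all on the minus strand of chromosome 2, are printed because they mark places in the gene that gave different ratios.
Tspan18 probe 1: ttggaatttgtaaatgtcccttgcagtagg
Tspan18 probe 2: ttgttagtctctctaggctcagattaccca
Tspan18 probe 3: gttctgggtcctttactcattccatgcctt
In mm9, probe 1 lies at chr2:93041981-93042040, probe 2 at chr2:93043413-93043472 and probe 3 at chr2:93151420-93151479, which is 109439 bases from probe 1. The array design assigns the first pair to a RefSeq transcript and probe 3 to an Ensembl transcript, and whether its place is exonic was not analysed here. Probe 2 read 314 against 305 in the female and 587 against 365 in the male pools and thus followed probe 1, with log2 ratios of -0.03 and 0.68. Probe 3 read 52.3 against 91.0 in the female and 56.1 against 126 in the male pools. There both Pparg-cKO pools were below both control pools, with log2 ratios of -0.66 and -0.87 and a mean of 0.77 on the log2 scale below control, or 1.70-fold lower. Probe 3 was too dim on the female array for the fold rule, and the spots of 1 probe differed by SDs of 0.12 and 0.13. The remaining probe was not well above background. Of the 9 members with several probes well above background, Tspan18 was the only one whose probe means lay more than 0.3 apart on the log2 scale.

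**Figure D3:**
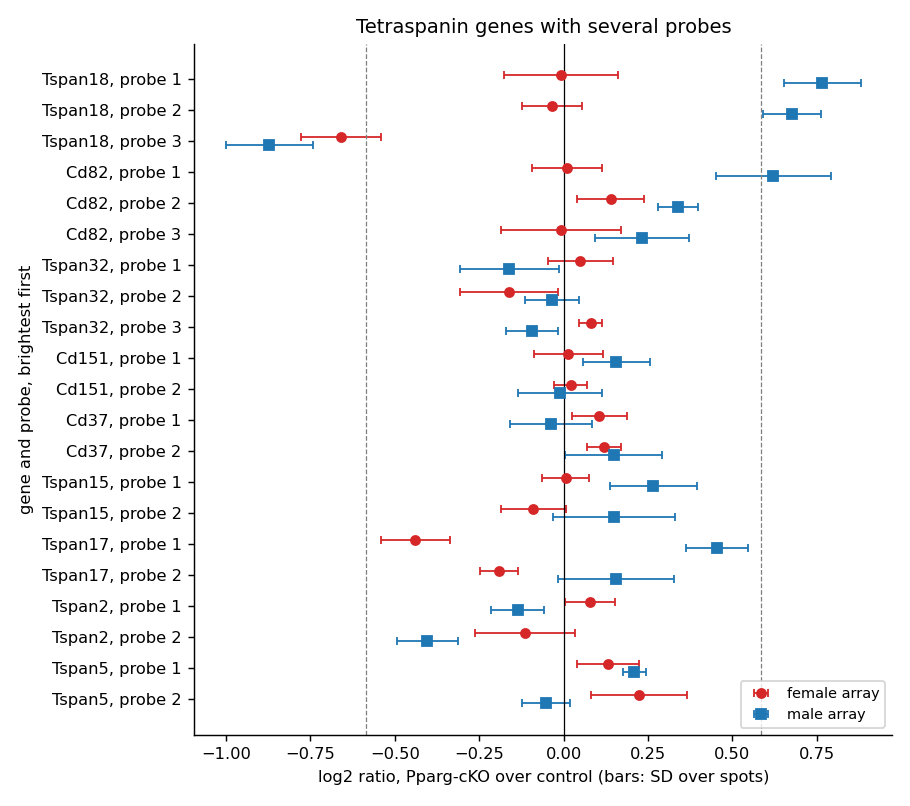
Log2 ratio of Pparg-cKO over control (deposited direction) for the probes well above background of the 9 genes that have several, brightest probe first, with red circles for the female and blue squares for the male array, bars for the SD over the spots of the probe and dashed lines at 1.5-fold. Probes 1 and 2 of Tspan18 are near 0 on the female array and at 0.77 and 0.68 on the male array, while probe 3 is below 0 on both.

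The last group showed small values. Tspan6 and Tspan7, both encoded on the X chromosome, had log2 ratios of -0.32 and -0.10, and of -0.12 and 0.35, on the female and the male array. Tspan3 was higher on both, at 0.14 and 0.25, and Tspan4, which marks migrasomes left behind by moving cells, was lower on both, at -0.16 and -0.03. Tspan2, a gene of oligodendrocytes and their precursors, had 0.08 and -0.14 at its brightest probe and -0.11 and -0.40 at its second. Tspan9, Tspan11 and Tspan31 had mean ratios of 0.09, -0.02 and -0.02. Rom1, the companion of Prph2 in photoreceptor discs, was present in ureters with signals from 157 to 199 and a mean ratio of 0.06, and Tm4sf1 gave -0.23 and -0.01.

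Several members lie near each other in the genome, and their values can be set side by side. Whether other genes lie between them was not examined. Tspan18 and Cd82 are 217 kb apart on chromosome 2 (mm9, by the starts of their brightest probes) and were the 2 genes raised past 1.5-fold on the male array alone. On chromosome 7, Tspan32 and Cd81 lie 48.4 kb apart and had opposite signs on each array. Cd151 and Tspan4, 22.0 kb apart on the same chromosome, had mean log2 ratios of 0.09 and -0.10, and Tspan11 and Tspan9, 10.1 kb apart on chromosome 6, had -0.02 and 0.09.

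Taking the 28 tested members as a group, 9 were higher on both arrays, 3 were lower on both and 16 had opposite signs. Over all 22499 genes these counts were 6007, 5847 and 10645. The median log2 ratio of the members was -0.03 (female array) and 0.20 (male array), with 0.09 for the mean of the arrays, while that of all genes was -0.01, 0.01 and 0.01. For 24 of the 28 members (85.7%) the ratio was higher on the male than on the female array, against 55.7% of all genes tested. Without Tm4sf1 the share was 23 of 27. The urothelial marker genes moved the same way, with the ratio higher on the male array in 16 of 16 and a median difference of 0.54, against 0.22 for the members. Of 7 smooth muscle genes the ratio was higher on the male array in 4 (median difference 0.11), of 7 stromal genes likewise in 4 (0.09), and of 7 endothelial genes in 5 (0.22). Nerve genes gave 4 of 6 (0.07) and collecting duct genes 3 of 5 (0.11). The remaining lists leaned the other way, with 4 of 11 leukocyte genes (-0.15), 1 of 4 blood genes (-0.21), 1 of 5 skeletal muscle genes (-0.07) and 0 of 4 liver genes (-0.75). Since sex, dye and array changed together and each sex had 1 array, this difference was not tested.

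**Figure D4:**
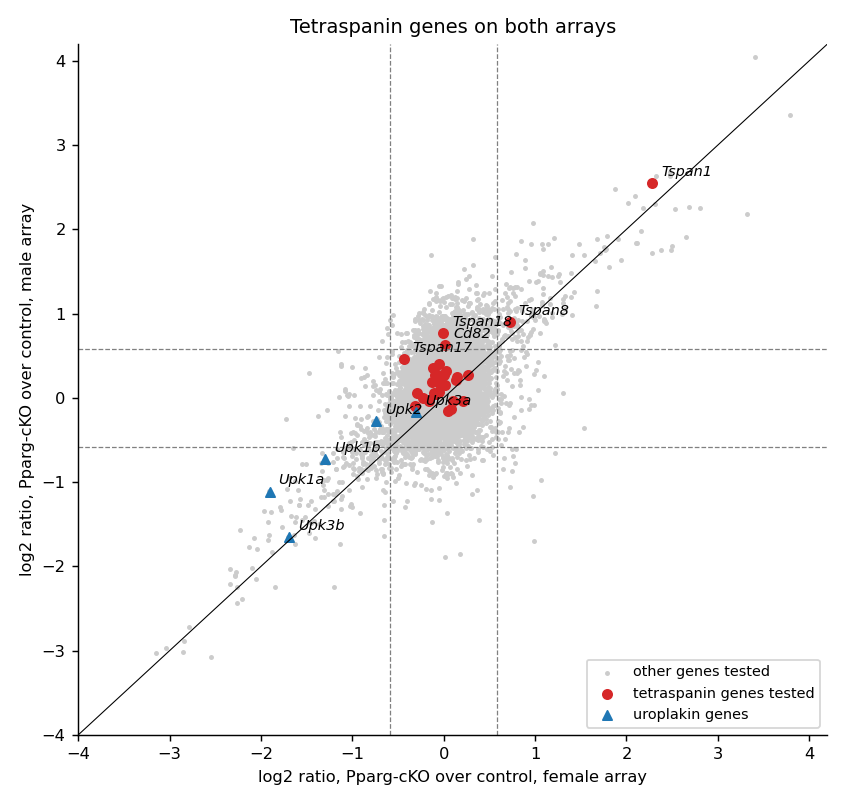
Log2 ratio of Pparg-cKO over control (deposited direction) on the female array (horizontal axis) against the male array (vertical axis) for all genes tested (grey), the tetraspanin genes tested (red) and 5 uroplakin genes (blue triangles), with dashed lines at 1.5-fold and the line of equality. Tspan1 lies near the line of equality at the upper right, Upk1a, Upk1b and Upk3b lie at the lower left, and most red points lie near 0 and above the line.

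To place the family among the proteins it works with, 40 partner genes were examined: integrins and laminin, immunoglobulin-superfamily and receptor partners, ADAM proteases, exosome proteins, the uroplakins and further L6 family genes. Of these, 39 were tested and 31 were bright on both arrays. By the fold rule 3 of the 31 were lower and 0 were higher, and limma called 1 of 39, all of them uroplakin genes, against 1.05% lower, 0.792% higher and 0.742% called in limma over all genes. With normexp without an offset, and again with median centring in place of loess, limma called 3 of them, and 0 when run on the deposited values. Over all genes limma called 503, 173 and 0 under these settings, against 167 in the main run. The median over the 39 genes was -0.05 (female array) and 0.07 (male array).

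The uroplakin tetraspanins thus ran opposite to Tspan1 and Tspan8. Upk1a read 4177 against 14900 in the female and 5461 against 12490 in the male pools, Pparg-cKO first, with log2 ratios of -1.91 and -1.11 (limma adjusted p = 0.0719). Upk1b, the tetraspanin that pairs with Upk3a, read 5041 against 12080 and 6246 against 10390, with log2 ratios of -1.30 and -0.73 (limma adjusted p = 0.116). For both genes the Pparg-cKO pools lay below the control pools with no overlap. Upk3b, a uroplakin that is not a tetraspanin, read 297 against 1013 and 248 against 847, and its log2 ratios of -1.70 and -1.65 gave an adjusted p of 0.00948 in limma. The study counts Upk1a and Upk3b among genes it picked from these arrays, so their direction is not independent evidence.

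Of all 40 partner genes, 10 passed 1.5-fold on the male array, where 8.81% of all bright genes passed in either direction. Of the 10, 7 were higher and 3 lower, and on the female array 0 partner genes passed upwards. The share of all genes that passed upwards on the male array was not counted. The higher genes were Itgb4 and Itga3, subunits of the laminin-binding integrins that associate with Cd151, the secreted laminin Lamb3 and the junction genes Cdh1 and Cldn7. The syndecan Sdc4 and Pdcd6ip, a cytosolic protein of exosome formation, were the others, and all are named after their values were seen. Itgb4 read 611 against 657 in the female and 1801 against 584 in the male pools, with log2 ratios of -0.14 and 1.69. The ratio of Itga3 was 0.09 and 1.18, and that of Lamb3 was -0.08 and 0.97. Cd151 itself had 0.01 and 0.16, Itga6, which pairs with Itgb4, 0.20 and 0.16, and Itgb1, the common beta subunit, -0.05 and 0.18. None of the genes named in this paragraph had an adjusted p under 0.05 in limma. Epcam, an epithelial adhesion protein that associates with Cd9 and Cldn7, was higher on both arrays, at 0.41 and 0.48, without reaching 1.5-fold.

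**Figure D5:**
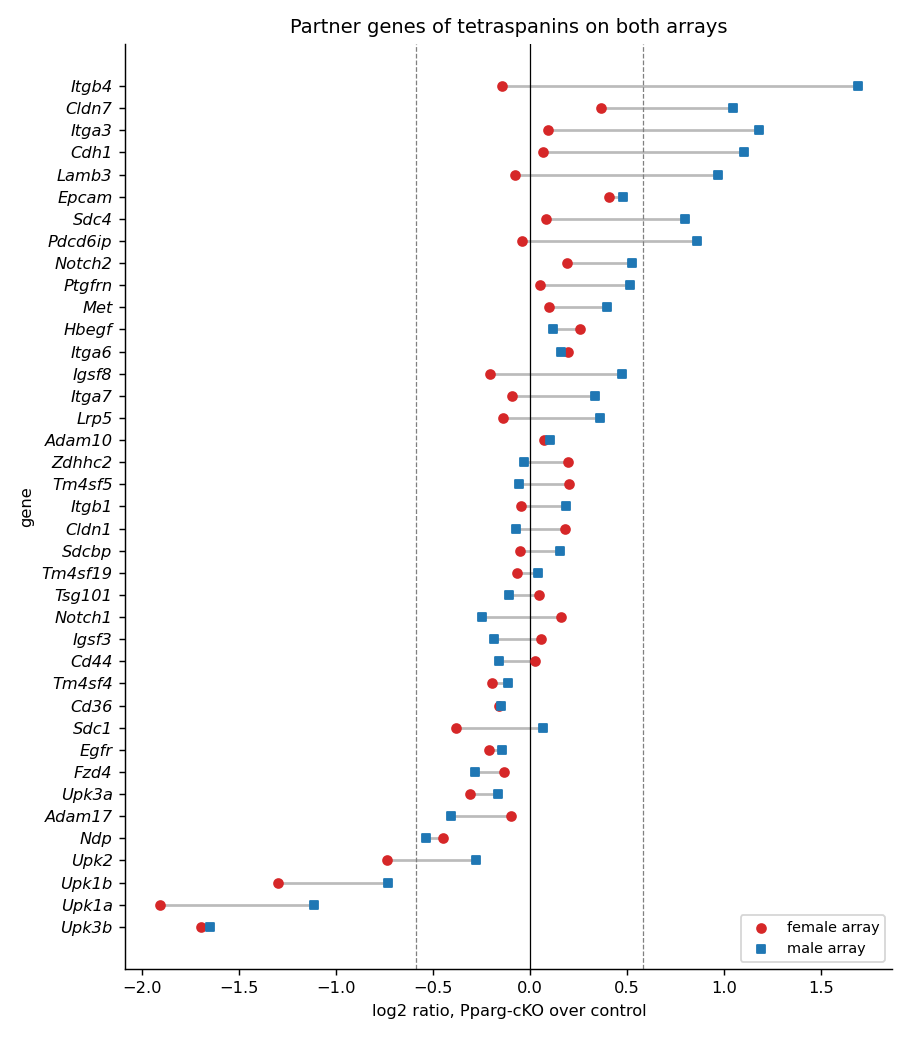
Log2 ratio of Pparg-cKO over control (deposited direction) of the 39 partner genes tested, ordered by their mean, with red circles for the female and blue squares for the male array, grey lines joining them and dashed lines at 1.5-fold. Upk3b, Upk1a and Upk1b are below the lower dashed line on both arrays, and Itgb4 at the top is at -0.14 on the female and at 1.69 on the male array.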

How the data were processed

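Ureter RNA was compared on 2 two-colour Agilent arrays, scanned by the submitters with Agilent Feature Extraction 10.7.3.1 per their processing notes. Per the file headers, the deposited scanner files hold spot intensity on a linear scale (mean, local background and a processed signal corrected and dye-normalised by the scanner software), the log10 ratio of red over green, and flags for uneven, saturated or well-measured spots. A further table that the authors deposited holds 1 signed fold change, treated as a score, per probe and array. Its scale is log-symmetric fold, a fall of N-fold being written as -N. It correlated with the processed log2 red over green ratio at 0.997 (female array) and -0.998 (male array) over probes with a signal of at least 100, and its direction opposes the dye labels. Its centring is not given in the sources used here.

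Mean signals were corrected against the local median background with normexp (offset 50) and normalised by loess within arrays (limma 3.58.1, R 4.3.3), with control and outlier spots left out. Outlier flags removed 6 (female array) and 8 (male array) of 176 member spots, and 0 were saturated. Kept spots of a probe were averaged, a gene was represented by its brightest probe, and ratios were turned to the deposited direction. Genes whose probe was well above background on at least 0.5 of its spots, in at least 1 channel of both arrays, were tested: lmFit and eBayes on the mean log2 ratio (two-sided, 1 residual and 3.96 prior degrees of freedom), with Benjamini-Hochberg adjustment over 22499 genes. The number of arrays limits the precision. The p-values and intervals rest on the spread between 2 pairs of pools, moderated by the spread over all genes tested. The offset pulls ratios of dim probes towards 0. The procedure was also run on simulated arrays in which bright probes changed 2-fold. That run does not cover probes as dim as that of Tspan1. Members, role groups, partners and 10 marker lists were chosen with earlier results of these data known. Genes named in full passed the fold rule or limma; members past 1.5-fold on 1 array, members with disagreeing probes, the broad, leukocyte and TspanC8 members and partners past a rule were named by value. Tspan12 was given in full after its values were seen. Marker genes of the urothelium, endothelium, leukocytes and collecting duct are given in the report. Of the other lists the smooth muscle genes (median mean log2 ratio -0.15), stromal genes (0.11) and nerve genes (-0.05) had 0 calls by the fold rule. Blood genes (0.11) and skeletal muscle genes (-0.21) also had 0. The liver genes (-0.63) had 1 lower, Ttr, at -2.55 (female array) and -3.08 (male array). The study counts Ttr among genes of superficial cells, so this call is not a reading of liver tissue. Probe positions are those of the array design (mm9). Promoters came from RefSeq (GRCm38.p6), where all 30 symbols were found. Alternatives were other background corrections, normalisations, summaries, filters and thresholds, the deposited table, the dye-label direction and each array alone.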

Additional observations from a re-analysis of the deposited data

Results flagged for a closer look

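Tspan17 was lower in the female and higher in the male Pparg-cKO pool than in the control pool of that sex, each time by at least 1.2-fold. No other gene did so among the members and partner genes tested. Among the urothelial marker genes, Krt5 (-0.86 and 0.35), Grhl3 (-0.40 and 0.57) and Krt8 (-0.28 and 0.52) did so as well. The male minus female log2 ratio of Tspan17 was 0.89. Each sex was measured on 1 array with its own dye orientation, and the difference was not tested.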

How the results depend on the processing

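Tspan1 and Tspan8 passed the fold rule under every alternative run at 1.5-fold, and with a 2-fold threshold 1 member, Tspan1, remained. With the direction of the dye labels the called genes reversed to -2.41 (Tspan1), -0.81 (Tspan8), 1.51 (Upk1a), 1.01 (Upk1b) and 1.67 (Upk3b), and the median of the tetraspanin genes moved from 0.086 to -0.086. On the deposited table limma called 0 members and 0 partner genes, as it called 0 of all genes, and Tspan1 at 3.07 had an adjusted p of 0.533; the cause was not tested. Normexp without an offset took Tspan8, at 0.81, to an adjusted p of 0.0177 in limma, and limma then called 2 members and 3 partner genes. Its calls over all genes rose there from 167 to 503. Median centring also gave 3 partner genes, with 173 calls over all genes. Leaving out each array in turn gave 2 to 4 members and 4 to 10 partner genes past 1.5-fold, 4 and 10 of them on the male array alone. The same omission gave log2 ratios of 2.28 to 2.55 for Tspan1 and 0.72 to 0.90 for Tspan8, and a median of the tetraspanin genes of -0.03 to 0.20. Each array's ratio already pairs a Pparg-cKO pool with a control pool of the same sex, so that no further replicate block could be fitted.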
